A study of Mus musculus with 8 samples.

Results

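Expression of the paralemmin genes and of Akap2 was examined in Isl1 knockout and wild-type mouse embryos, in dissected pharyngeal mesoderm with the heart. The set held 5 genes, Palm2, Palm, Palm3, Palmd and Akap2, named by symbol, of 20701 gene symbols measured. They had 8 transcript entries of 31507, and the entry with the highest summed count stood for each gene. The genes were picked with the knockout against wild-type contrast already known, so their differences between the genotypes are given as descriptions without a test. RNA was taken from single C57BL/6 embryos at E8.75 with 6 somites, 4 of genotype Isl1-/- and 4 wild-type. All embryos shared the strain, the stage and the dissection. How the Isl1 allele was made was not used here, and the labels named no driver, pooling or treatment. The labels gave the molecule as polyA RNA in 7 libraries and as total RNA in 1, that of knockout embryo 2.

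Paralemmins are a small family of membrane-associated proteins of the cell cortex. Paralemmin-1, encoded by Palm, is anchored to the inner face of the plasma membrane by a prenyl group on a carboxy-terminal CaaX motif and by palmitoyl groups nearby, and it has been linked to filopodia and cell shape. Palmd encodes palmdelphin, a mostly cytosolic relative that lacks the CaaX motif and is known from striated muscle and heart valves. Akap2 belongs to another family, the A-kinase anchoring proteins, which hold the regulatory subunits of cAMP-dependent protein kinase (PKA) at defined places in the cell. Palm2 and Akap2 lie next to each other, and some annotated transcripts join exons of both. Isl1 encodes a LIM-homeodomain factor of cardiac progenitor cells.

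Total counts over 1 transcript entry per symbol ranged from 23480456 to 26153048 in wild-type and from 18916449 to 25047024 in knockout embryos. Totals were not shown to differ between the genotypes (p = 0.2571 by an exact permutation test, two-sided, with 4 embryos a genotype, where p cannot go below 0.0286). Isl1 had wild-type values of 9.72, 9.76, 26.9 and 23.3 CPM (read counts scaled to library size after TMM) for embryos 1 to 4, and the knockout values in the same order were 2.32, 2.16, 1.78 and 2.40 CPM. All knockout values lay below all wild-type values (log2 fold change -3.0, SE 0.36, edgeR FDR 0.0041). Reads of Y-linked genes marked 1 wild-type and 3 knockout embryos as male, so sex was unequal between the groups. Of 8 cardiomyocyte marker genes, 7 were lower in the knockout embryos past an edgeR FDR of 0.05. Of all genes fitted, 0.973% passed this limit: 0.867% of all genes were lower in the knockout and 0.107% higher. The summed level of the list was 1493 to 2276 CPM in knockout against 2828 to 4192 CPM in wild-type embryos. The count of markers past the limit was 4 without wild-type embryo 1, 2 or 4 or knockout embryo 4. None of the 8 was at 0 in any embryo, so the labelled heart tissue was present in both genotypes.

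On mouse chromosome 4, Palm2 was annotated at 57447119 to 57724888 and Akap2 at 57730529 to 57909854, both on the plus strand of NCBIM37 (mm9) in GENCODE vM1. The annotated end of Palm2 and the first start of Akap2 were 5640 bases apart. Of the annotated Palm2 starts, 2 that lay 133.9 kb apart are used here, and an annotated read-through transcript that joins the genes began 20 bases after the second of them. Its 11 exons covered 685 bases in exons shared with Palm2 and 6891 bases in exons shared with Akap2. Palm lay on chromosome 10 (79256317 to 79283641, plus strand), Palm3 on chromosome 8 (86545370 to 86554194, plus strand) and Palmd on chromosome 3 (116621174 to 116671905, minus strand), so the other paralemmin genes had no neighbour in common with Palm2.

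The 250 bases before 4 of these starts are printed here because the neighbouring genes Palm2 and Akap2 start from separate windows and because Palmd was the other gene with lower values in the knockout. They were read 5′ to 3′ on the strand of the gene from NCBIM37. Capitals mark TAAT, the core of many homeodomain binding sites, on either strand (ATTA where it lies on the opposite strand).
Palm2 first start, chr4:57446869-57447118 (+): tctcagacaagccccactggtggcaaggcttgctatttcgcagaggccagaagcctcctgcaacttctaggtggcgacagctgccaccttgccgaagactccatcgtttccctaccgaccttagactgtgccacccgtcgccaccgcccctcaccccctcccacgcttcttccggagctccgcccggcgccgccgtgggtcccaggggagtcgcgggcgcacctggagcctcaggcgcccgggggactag
Palm2 second start, chr4:57580781-57581030 (+): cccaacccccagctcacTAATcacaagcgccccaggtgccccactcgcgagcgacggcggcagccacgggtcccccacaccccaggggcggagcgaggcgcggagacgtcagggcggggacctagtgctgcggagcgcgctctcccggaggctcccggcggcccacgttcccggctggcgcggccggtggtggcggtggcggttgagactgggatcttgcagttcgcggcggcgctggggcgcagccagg
One Akap2 start, chr4:57857869-57858118 (+): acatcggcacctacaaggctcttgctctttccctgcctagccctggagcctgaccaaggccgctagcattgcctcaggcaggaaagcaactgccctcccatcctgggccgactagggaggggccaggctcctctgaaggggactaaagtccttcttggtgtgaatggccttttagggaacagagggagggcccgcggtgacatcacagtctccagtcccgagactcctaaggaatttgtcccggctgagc
Palmd start, chr3:116671906-116672155 (-): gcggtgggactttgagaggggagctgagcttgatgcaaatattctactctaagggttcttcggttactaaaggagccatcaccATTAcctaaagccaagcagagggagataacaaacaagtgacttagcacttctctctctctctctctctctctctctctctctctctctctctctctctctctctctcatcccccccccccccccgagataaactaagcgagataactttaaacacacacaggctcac

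The second Palm2 window was the most GC-rich of the 4, at 75.2% G or C. The first Palm2 window had 67.2%, the printed Akap2 window 59.6% and the Palmd window 48.8%, and the median over 22362 windows of the genome was 54%. Windows at the other Akap2 starts had 42% to 58.8%, and some of them held TAAT, unlike the printed one. The Palmd window held a long run of CT repeats. Over 12 upstream windows of the members that overlapped none of their annotated exons, TAAT was found on either strand in 6, and in 52.38% of all windows. The longer CTAATG, which contains TAAT, was in 0 of the 12 and in 6.13% of all windows. The E-box letters CANNTG were in 11 of the 12 and in 63.56% of all windows, and TATAAA was in 0 of the 12 and in 12.34%. The windows of all genes were 1 per protein-coding gene, without a filter on exons. A member could give more than 1 start, and Akap2 gave the most, so the shares are not like for like. These counts describe the letters in the windows only.

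Palm2 had wild-type values of 59.8, 57.9, 63.1 and 66.8 CPM for embryos 1 to 4, and the knockout values in the same order were 31.5, 27.6, 33.7 and 30.9 CPM. The 2 groups were far apart and each was narrow: the wild-type mean was 61.9 ± 3.90 CPM and the knockout mean 30.9 ± 2.53 CPM (SD, n = 4). The knockout mean was 49.9% of the wild-type mean, a log2 fold change of -1.0 (SE 0.08). The raw counts behind these values ran from 631 to 1757. The SD of log2 CPM within a genotype was 0.11 for Palm2, against a median of 0.17 over the 14075 genes fitted. In bulk tissue, fewer cells that express a gene and less RNA per cell cannot be told apart.

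Palmd, the palmdelphin gene, was also lower and was weakly expressed. It had wild-type values of 1.29, 1.86, 2.61 and 1.41 CPM for embryos 1 to 4, and the knockout values in the same order were 0.735, 0.788, 0.366 and 0.685 CPM. These values rest on 7 to 62 reads per library. The lowest wild-type embryo stood above the highest knockout embryo, with a log2 fold change of -1.46 (SE 0.32). On the log2(RPKM + 1) scale, which understates changes of weakly expressed genes, the difference was -0.30.

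Palm, which encodes paralemmin-1, did not separate the genotypes. Its wild-type values for embryos 1 to 4 were 38.9, 42.1, 51.9 and 44.6 CPM, and the knockout values in the same order were 53.7, 43.5, 44.2 and 55.4 CPM, with a log2 fold change of 0.15 (SE 0.11). The 2 highest values belonged to knockout embryos 4 and 1, and the remaining knockout embryos lay inside the wild-type range. The second Palm entry differed from the first by at most a few reads and gave the same log2 fold change of 0.15.

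Palm3, the third paralemmin gene, varied widely inside each genotype. It had wild-type values of 27.2, 38.0, 45.7 and 23.5 CPM for embryos 1 to 4, and the knockout values in the same order were 23.7, 55.8, 45.0 and 23.5 CPM. The SD of its log2 CPM within a genotype was 0.55, the largest of the 5 genes. The log2 fold change was 0.14 (SE 0.31), and its sign turned to -0.13 without knockout embryo 2 and to -0.00014 without wild-type embryo 4.

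Akap2, the gene of the kinase anchor, overlapped between the genotypes. It had wild-type values of 164, 149, 225 and 166 CPM for embryos 1 to 4, and the knockout values in the same order were 148, 155, 154 and 148 CPM. The knockout embryos were tightly grouped at 151 ± 3.92 CPM, and the wild-type mean was 176 ± 33.3 CPM (SD, n = 4). The log2 fold change was -0.22 (SE 0.11), of which wild-type embryo 3 held a large part: without it the value was -0.08. The 3 Akap2 entries gave -0.22 each.

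Of the 5 members, all were fitted and 2 had knockout values that did not overlap the wild-type values, Palm2 and Palmd, both lower. Over all 14075 genes, the groups did not overlap in 10.3%, with 6.33% lower and 3.96% higher in the knockout. The members were chosen with this contrast in view, and nothing is read from their share. Without knockout embryo 2, the library labelled total RNA, the log2 fold change was -0.95 for Palm2, -1.56 for Palmd, 0.21 for Palm and -0.23 for Akap2.

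Levels were compared between genes only per length of transcript, as the deposited RPKM (reads per kilobase of transcript, scaled to library size). In wild-type embryos Akap2 had the highest mean at 15.0 ± 2.96 RPKM, followed by Palm at 9.78 ± 1.32, Palm3 at 7.99 ± 2.39, Palm2 at 4.40 ± 0.37 and Palmd at 0.437 ± 0.147 RPKM (SD, n = 4). In this order the ranges of Palm and Palm3 overlapped, and all other neighbours were apart. The place of Palm2 rests on its deposited length, over which its reads were counted. The exons in that length were not given in the sources used here. Its entry was 8187 bases long, whereas the longest Palm2 transcript in GENCODE vM1 had 3371 bases, and the entries of the other 4 genes were no longer than their longest annotated transcripts. If all Palm2 reads came from 3371 bases, its level would be 10.7 ± 0.898 RPKM in wild-type embryos. The knockout value would be 5.54 ± 0.488 RPKM (SD, n = 4). These values are too high if any reads lay elsewhere in the entry. At this upper level Palm2 would have the second highest mean in wild-type embryos, with a range that overlaps those of Palm and Palm3. With the deposited lengths the order of the means was the same in the knockout embryos, where Palm2 was at 2.28 ± 0.20 RPKM and Palmd at 0.163 ± 0.048 RPKM. Palm2 made up 16.3% to 23.1% of the summed RPKM of the 4 paralemmin genes in wild-type embryos and 7.82% to 11.3% in knockout embryos. The sum itself was 22.6 ± 3.55 RPKM in wild-type and 22.8 ± 2.24 RPKM in knockout embryos (SD, n = 4), with overlapping ranges. If all Palm2 reads came from the annotated length, its share would be 32.2% to 42.2% in wild-type and 17.1% to 23.5% in knockout embryos. The sums of 28.9 ± 3.66 and 26.1 ± 2.09 RPKM would still overlap. The Palm2 share was lower in every knockout than in every wild-type embryo with either length.

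**Figure D1:**
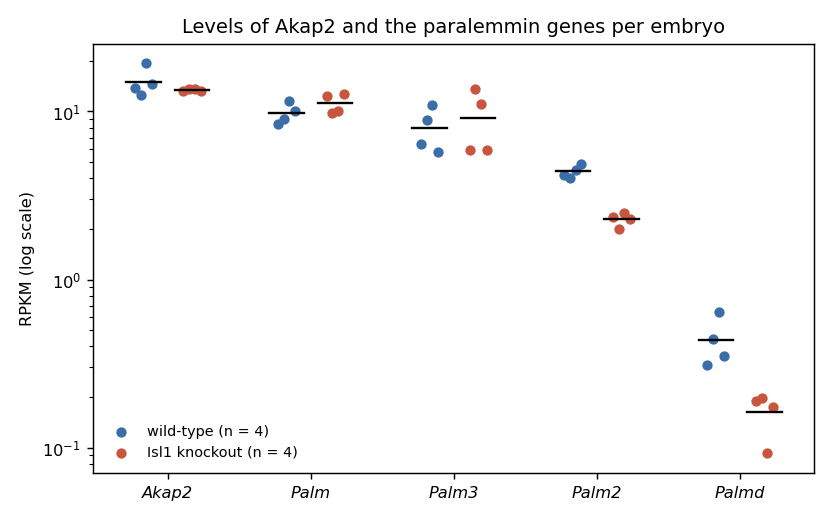
Deposited RPKM (log axis) of Akap2 and the 4 paralemmin genes, 1 point per embryo, wild-type in blue and Isl1 knockout in red, with a line at each group's mean. Palm2 and Palmd show separate groups, whereas Akap2, Palm and Palm3 overlap, and Palm3 has the widest spread; Palm2 is drawn at its deposited length of 8187 bases.

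The entry that joins Palm2 and Akap2 was examined next. This read-through entry, carried under the symbol Pakap, was 7360 bases long, or 556 bases longer than the Akap2 entry, and shared nearly all its reads with it. Its count exceeded that of the Akap2 entry by 130, 116, 116 and 121 reads for wild-type embryos 1 to 4. For the knockout embryos in that order the excess was 61, 53, 57 and 61. These extra reads are a net difference of 2 counts, since the Akap2 entry may hold exons that the read-through entry lacks. After scaling they were 5.01 ± 0.353 CPM in wild-type and 2.63 ± 0.413 CPM in knockout embryos (SD, n = 4). The knockout mean was 52.5% of the wild-type mean. These extra reads were thus about as far below wild-type as Palm2 itself, while the Akap2 entry stayed at 85.8% of the wild-type mean. They made up 2.84% of the read-through entry in wild-type and 1.71% in knockout embryos. The annotated read-through transcript shares exons with Palm2, and which exons the deposited Palm2 and read-through entries cover was not given in the sources used here. Reads may therefore be counted in both entries, the extra reads are not taken as independent of the Palm2 count, and a read in a shared exon cannot be assigned to the joined or the separate transcript. Subtracting the second long Akap2 entry gave 52.4%, and subtracting the shorter one, which leaves out further Akap2 sequence, gave 67.7%.

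**Figure D2:**
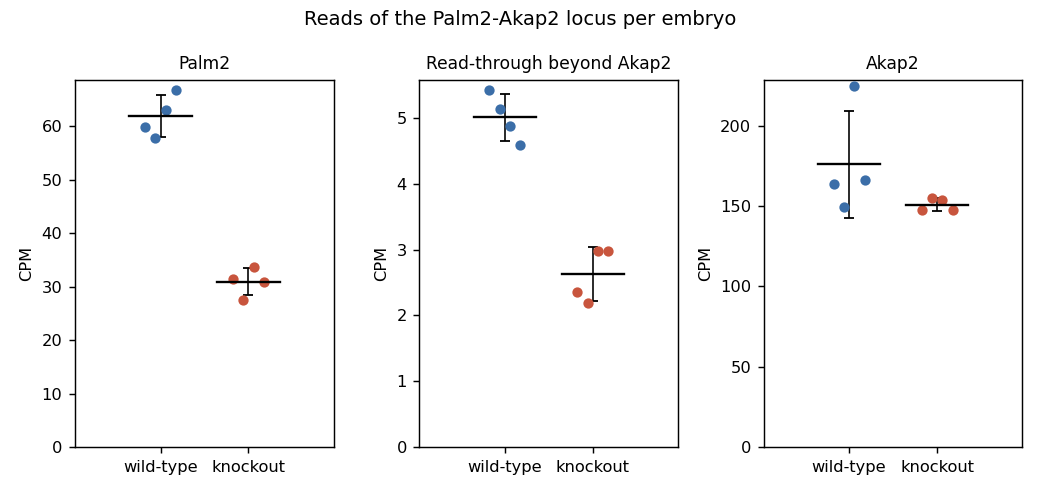
TMM-scaled CPM per embryo of the Palm2 entry, of the read-through count less the Akap2 count (titled read-through beyond Akap2) and of the Akap2 entry, with mean and SD (n = 4 per genotype) and axes that start at 0. The first 2 panels show knockout groups near one another at 49.9% and 52.5% of the wild-type mean, and in the third the groups overlap.

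The genes around Palm2 and Akap2 followed. Within 500 kb, 19 other genes were annotated, 8 were in the table and 6 could be fitted. None of the 6 passed an edgeR FDR of 0.05, and 0 had an unadjusted p under 0.05, a limit that 17.4% of all genes fitted passed. Their log2 fold changes ran from -0.08 for Frrs1l to 0.23 for Epb41l4b, beside -1.0 for Palm2. The nearest fitted gene upstream, the phosphatase gene Ptpn3, had a log2 fold change of 0.04 (SE 0.20), and downstream of Akap2 the weakly expressed D630039A03Rik had 0.16 (SE 0.47), the thioredoxin gene Txn1 -0.07 (SE 0.11) and the matrix protein gene Svep1 0.10 (SE 0.18). DESeq2 and the other settings run called 0 of them as well.

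**Figure D3:**
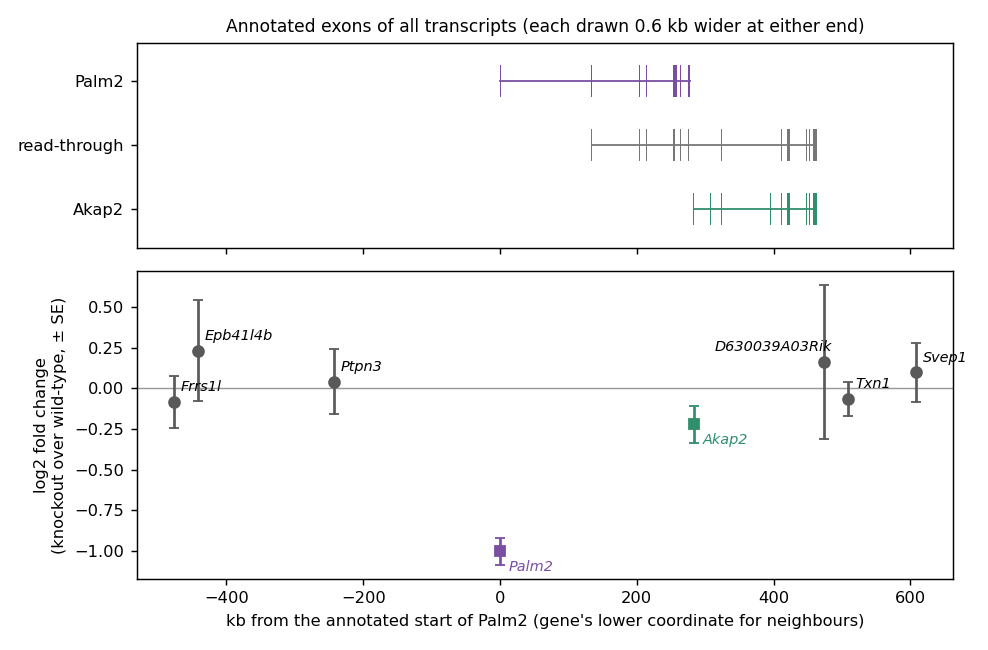
Upper panel, annotated exons of Palm2, the read-through and Akap2 by distance in kb from the Palm2 start; lower panel, log2 fold change (knockout over wild-type, ± SE) of Palm2, Akap2 and the 6 fitted neighbours within 500 kb. Palm2 stands at -1.0 and Akap2 at -0.22, while the neighbours lie between -0.08 and 0.23.

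The neighbours of the other members gave one call. Plppr5, which encodes a phospholipid phosphatase-related membrane protein, was the nearest expressed gene at higher coordinates than Palmd, 606.2 kb away. It had wild-type values of 4.76, 4.70, 5.10 and 4.87 CPM for embryos 1 to 4, and the knockout values in the same order were 2.51, 3.03, 1.88 and 2.99 CPM. The groups did not overlap (log2 fold change -0.90, SE 0.17, edgeR FDR 0.0477), and the call was close to the threshold: it was kept in 3 of 14 other settings and lost in 11, among them 7 of the 8 in which 1 embryo was left out. On the other side of Palmd, Frrs1 had a log2 fold change of -0.01 (SE 0.15). The neighbours of Palm were Prss57 at 0.38 (SE 0.30) and Misp at 0.56 (SE 0.28), those of Palm3 were 2210011C24Rik at 0.23 (SE 0.80) and Rfx1 at 0.06 (SE 0.12), and all of these had an FDR above 0.05.

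Palm2 was then set against each of its relatives inside the same embryo, as the log2 ratio of scaled counts, which is not per length. The log2 ratio of Palm2 to Palm took wild-type values of 0.62, 0.46, 0.28 and 0.58 for embryos 1 to 4 and, in the same order, knockout values of -0.77, -0.66, -0.39 and -0.84. Palm2 thus had more reads than Palm in every wild-type and fewer in every knockout embryo. The ratio to Akap2 ran from -1.83 to -1.32 in wild-type and from -2.49 to -2.19 in knockout embryos, a difference of means of -0.80. The ratio to Palm3 differed by -1.09, with a wild-type range of 0.47 to 1.51 and a knockout range of -1.02 to 0.41. The ratio to Palmd was 0.45 higher in the knockout and overlapped between the genotypes.

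**Figure D4:**
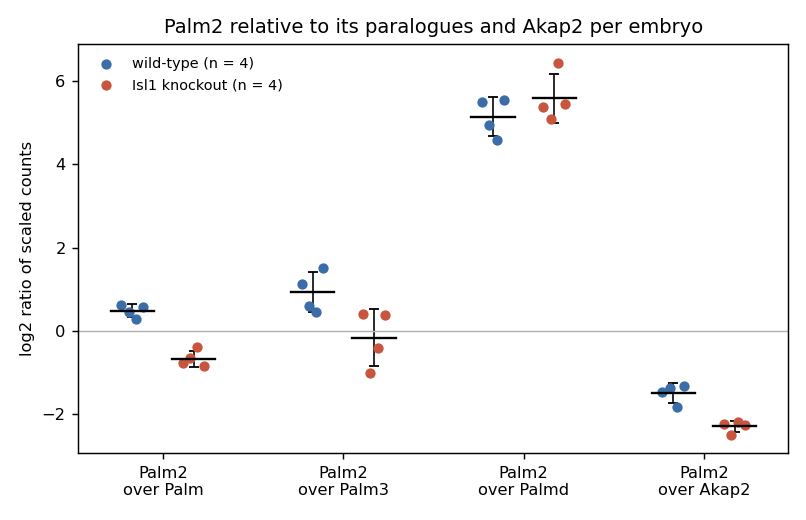
Log2 ratio of scaled counts of Palm2 to Palm, Palm3, Palmd and Akap2 per embryo, wild-type in blue and Isl1 knockout in red, with mean and SD (n = 4). The ratios to Palm, Palm3 and Akap2 are lower in every knockout than in every wild-type embryo, and the ratio to Palmd overlaps.

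Markers of cell types were placed beside the members. For embryos 1 to 4, the 8 cardiomyocyte markers summed to 4192, 4125, 2828 and 3818 CPM in the wild-type group, beside 1975, 1493, 2276 and 1723 CPM in the knockout group. The knockout mean was 49.9% of the wild-type mean, beside 49.9% for Palm2 and 35.9% for Palmd. The sum is weighted to the most abundant markers, and marker by marker this ran from 37.8% for Nkx2-5 to 63.8% for Tnni1. Wild-type embryo 3 had the lowest marker sum of its group but the second highest Palm2 level, at 63.1 CPM, and the highest Palmd level. Inside the knockout group, embryo 2 was lowest and embryo 3 highest for both the marker sum and Palm2. The part of the cardiomyocyte share in the lower Palm2 and Palmd values was not tested. Markers of endothelium, endoderm, neural tissue, erythroid cells and visceral endoderm had 0 genes past FDR 0.05 by edgeR, 0 by DESeq2 and 0 with an unadjusted p under 0.05. Of the 3 skeletal muscle markers, only Myf5 could be fitted, at 0.75 (SE 0.48, edgeR FDR 0.444). Of the 5 second heart field markers, Isl1 was the 1 past FDR 0.05, and 3 had an unadjusted p under 0.05, against 17.4% of all genes. Isl1 was the gene knocked out, so its own lower level says nothing about the amount of this tissue. Besides Isl1, those with an unadjusted p under 0.05 were Fgf10, a growth factor gene, and Tbx1, a T-box factor gene. Both are named after their values were seen, and they went in opposite directions. Fgf10 was at 12.9 to 21.7 CPM in wild-type and 9.31 to 12.7 CPM in knockout embryos, without overlap (log2 fold change -0.55, SE 0.17, edgeR FDR 0.148). Tbx1 was at 7.32 to 25.5 CPM in wild-type and 14.2 to 35.0 CPM in knockout embryos, with overlap (log2 fold change 0.98, SE 0.40, edgeR FDR 0.248).

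The spread of Palm3 was set beside another tissue. The 4 visceral endoderm markers, Afp, Ttr, Apoa1 and Apob, which encode serum proteins of the yolk sac, summed to 918, 1732, 3027 and 343 CPM in the wild-type group (embryos 1 to 4), beside 266, 4446, 3021 and 461 CPM in the knockout group. The embryo with the highest sum, knockout embryo 2, also had the highest Palm3 level, and the 3 embryos with the lowest sums, wild-type embryo 4 and knockout embryos 1 and 4, had the 3 lowest Palm3 levels, between 23.5 and 23.7 CPM. Over the 8 embryos the log2 values had a Pearson r of 0.975 and a Spearman rho of 0.929. Without wild-type embryo 4 and knockout embryo 1, whose log2 sums lay farthest from the median, r was 0.990. Knockout embryo 2, with the highest sum and the highest Palm3 level, was kept in that calculation. The pair was picked from 40 combinations of member and marker list after their values were seen, the embryos share the dissection, and each genotype alone has too few embryos for a correlation, so r is given as a description. The part of visceral endoderm in the Palm3 level was not tested. The same comparison gave r = 0.903 for Palm3 and the endoderm markers and r = 0.923 for Palm2 and the cardiomyocyte markers, the latter across 2 genotypes that stand apart.

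**Figure D5:**
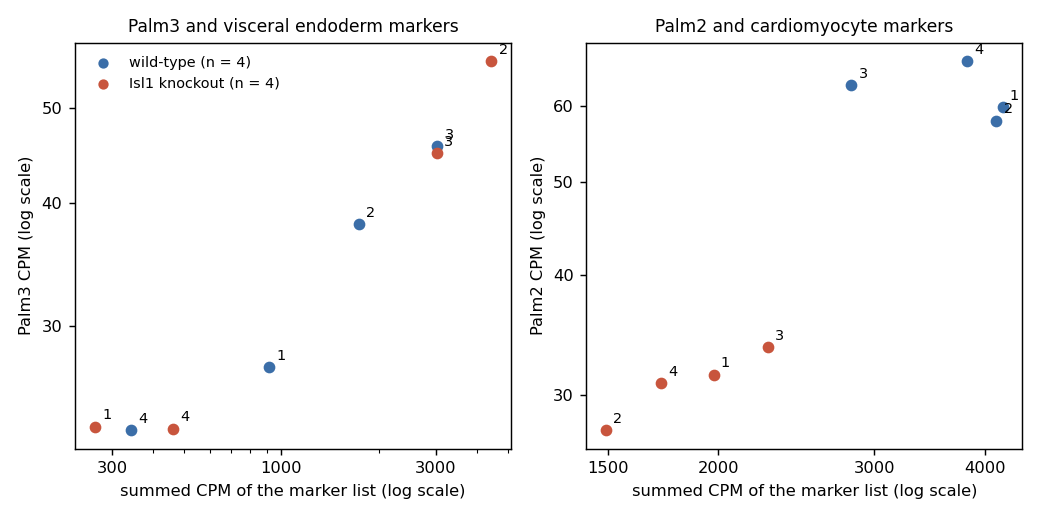
Left, Palm3 CPM against the summed CPM of 4 visceral endoderm markers; right, Palm2 CPM against the summed CPM of 8 cardiomyocyte markers; log axes, 1 point per embryo, labelled with its number. Palm3 rises with the visceral endoderm sum in both genotypes, from 23.5 to 55.8 CPM, and Palm2 falls into a knockout group at 27.6 to 33.7 CPM and a wild-type group at 57.9 to 66.8 CPM.

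Other genes of PKA anchoring were described from lists. Among 15 further Akap genes, 12 were fitted, 0 passed an edgeR FDR of 0.05 and 3 had an unadjusted p under 0.05, all lower. Of all genes fitted, 17.4% had an unadjusted p under 0.05, 10.1% lower and 7.37% higher. The median log2 fold change of the list was 0.05, beside 0.01 over all genes fitted. Akap5, which anchors PKA and calcineurin beneath the plasma membrane, had the lowest p. Its wild-type values were 21.8, 24.3, 36.1 and 22.8 CPM for embryos 1 to 4 and its knockout values, likewise ordered, 16.5, 19.7, 17.5 and 14.5 CPM (log2 fold change -0.62, SE 0.17, edgeR FDR 0.113). The mitochondrial anchor Akap1 had a log2 fold change of -0.18 (SE 0.07, edgeR FDR 0.22), and the nuclear anchor Akap8, the most abundant of the list, had -0.14 (SE 0.06, edgeR FDR 0.262). DESeq2 called 1 Akap gene, Akap5 (adjusted p 0.0144), while it called 709 of all 14075 genes fitted.

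Among 14 PKA-anchoring proteins outside the Akap symbols, 13 were fitted and 1 passed an edgeR FDR of 0.05, lower in the knockout, or 7.69% against 0.973% of all genes in either direction and 0.867% lower. This gene was Sphkap, which encodes an anchor for the type I regulatory subunits of PKA. It had wild-type values of 39.5, 45.4, 31.0 and 44.1 CPM for embryos 1 to 4, and the knockout values in the same order were 20.7, 15.4, 20.2 and 22.9 CPM. All knockout embryos were lower than all wild-type embryos (log2 fold change -1.01, SE 0.15, edgeR FDR 0.0112), and the call held in every setting run. An unadjusted p under 0.05 was found for 4 genes of the list, all lower, against 10.1% of all genes. Besides Sphkap these were Cmya5, at -1.19 (SE 0.42, edgeR FDR 0.197), Cbfa2t3, at -0.40 (SE 0.15, edgeR FDR 0.216), and Synm, at -0.33 (SE 0.14, edgeR FDR 0.264), which are named after their values were seen. Cmya5 and Synm encode the muscle proteins myospryn and synemin, and all 3 overlapped between the genotypes. The median of the list was -0.02.

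The PKA subunits that these anchors hold were counted next. Of 9 PKA subunits and inhibitors, all fitted, 0 passed an edgeR FDR of 0.05. An unadjusted p under 0.05 was found for 2, 1 in each direction, against 17.4% of all genes. The list median was -0.09, with 0 calls by DESeq2. The regulatory subunit gene Prkar1b had a log2 fold change of 0.50 (SE 0.18, edgeR FDR 0.197) and Prkar1a, the most abundant, -0.17 (SE 0.07, edgeR FDR 0.268). Of 20 adenylyl cyclases and cAMP phosphodiesterases, which make and break down cAMP, 19 were fitted and 0 passed an edgeR FDR of 0.05, while 6 had an unadjusted p under 0.05, 3 in each direction, beside the 17.4% of all genes. Adcy5, a major cardiac adenylyl cyclase, had a log2 fold change of -0.54 (SE 0.14, edgeR FDR 0.105) and Adcy7 0.41 (SE 0.12, edgeR FDR 0.134). DESeq2 called 1 gene of that list, Adcy5 (adjusted p 0.0245), beside 709 of all 14075 genes fitted.

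Proteins that shape or line the plasma membrane, and the enzymes that process CaaX proteins such as paralemmin-1, by attaching a prenyl group, cleaving the end or methylating it, were the last lists. Of 15 membrane shape and cortex genes, 14 were fitted and 0 passed an edgeR FDR of 0.05. An unadjusted p under 0.05 was found for 1, against 17.4% of all genes. That gene was Murc, which encodes the muscle-restricted caveolar protein cavin-4 (log2 fold change -0.41, SE 0.15, edgeR FDR 0.213). The list median was 0.03, with 0 calls by DESeq2. The abundant Marcksl1 had -0.13 (SE 0.06, edgeR FDR 0.312). Of 6 CaaX-processing enzymes, 0 passed an edgeR FDR of 0.05 and 2 had an unadjusted p under 0.05, both lower, against 10.1% of all genes. All 6 had negative log2 fold changes, as had 48.8% of all genes, with a list median of -0.10. The protease gene Zmpste24 had -0.30 (SE 0.08, edgeR FDR 0.128), and the farnesyltransferase subunit gene Fnta -0.17 (SE 0.06, edgeR FDR 0.194). DESeq2 called 1 of the 6, Zmpste24 (adjusted p 0.0378), beside 709 of all 14075 genes fitted.

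Finally, genes with a pattern like that of Palm2 were sought by the Pearson correlation of log2 CPM over the 8 embryos among 11042 other genes with a mean of at least 5 CPM. The 5 most alike were Tmem163 (r = 0.996), Atp2a2 (r = 0.996), Adora1 (r = 0.995), Jph2 (r = 0.991) and Synpo2 (r = 0.990). Atp2a2 encodes the calcium pump of the sarcoplasmic reticulum, Jph2 junctophilin-2 of the junctional membrane, Synpo2 an actin-binding protein of the Z-disc and Adora1 the adenosine A1 receptor. All 5 were lower in the knockout, with log2 fold changes from -1.35 for Synpo2 to -0.39 for Atp2a2. Jph2 had wild-type values of 35.9, 34.0, 33.5 and 34.7 CPM for embryos 1 to 4, and the knockout values in the same order were 20.3, 17.8, 21.3 and 20.4 CPM. A high r over these embryos mostly restates the split between the genotypes. After each genotype's mean was taken away, the 5 most alike were Shd, Zfp661, Zfp821, Zgpat and Lmf1, with r from 0.931 to 0.962 over the same 8 embryos, and no gene was in both lists. With the means taken away, r with Palm2 was 0.32 for Palm, 0.21 for Akap2, -0.37 for Palm3 and -0.48 for Palmd. Each point is 1 embryo and 1 library, and no p is given for these values.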

How the data were processed

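RNA-seq of pharyngeal mesoderm and hearts from 4 Isl1 knockout and 4 wild-type single embryos was analysed, with genotype and replicate number taken from the sample titles. The authors mapped reads to mm9 with STAR and counted them over exons of RefSeq transcripts on both strands with HOMER, so the deposited counts were raw reads per transcript, and reads of an antisense neighbour would be counted too. Tool versions were not given in the sources used here. The deposited RPKM were computed by the authors with edgeR, per kilobase of transcript, scaled to the reads counted. The deposited length was in bases. The deposited baseMean signal, log2 fold changes with standard errors, Wald score and p-value columns were the authors' own DESeq2 results and were not used.

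For each symbol the transcript entry with the highest summed count was kept. Counts were fitted in R 4.3.3 with edgeR 4.0.16 (filterByExpr, TMM, quasi-likelihood F-test, genotype as the single term, two-sided, Benjamini-Hochberg over 14075 genes, FDR 0.05), and the code was tested on simulated data. CPM were TMM-scaled, and log2 CPM used a prior count of 0.5. SE was the size of the log2 fold change divided by the square root of F. Alternatives were DESeq2 1.42.0, limma 3.58.1 on log2(RPKM + 1), library totals without TMM, no filter, the replicate number as a block, Y-linked expression as a covariate, each embryo left out, other transcript entries and, for Palm2, the longest annotated length. Tables and plots were made with Python 3.11.15, pandas 2.3.3, numpy 2.4.6, scipy 1.17.1 and matplotlib 3.10.9. Positions and windows came from NCBIM37 and GENCODE vM1. Total counts per library ran from 18916449 to 26153048. Reads carried no molecular identifiers, so these depths limit counting error alone. Separate embryos were the replicates.

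The members and lists were chosen with earlier results of these data known. Genes were named by a rule: all members, Isl1, from each list the genes past FDR 0.05 (up to 4) or else the 2 lowest p and the most abundant gene, all genes within 500 kb of Palm2 or Akap2, the nearest expressed gene on each side of the other members, and the 5 genes most like Palm2 before and after removing genotype means. The link of Palm3 to a marker list was added after values were seen. Fgf10, Tbx1, Cmya5, Cbfa2t3 and Synm were named outside this rule, for an unadjusted p under 0.05, after values were seen. Tnni1 was named as the end of a range and Ttr as part of its marker list. Protein sequences were not used here.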

Additional observations from a re-analysis of the deposited data

Results flagged for a closer look

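In 130 groups of 4 embryos examined among the members, their ratios and the genes named by the rule above, 3 had 1 embryo far from the other 3. Chance alone gives about 5% of groups. None was a member. Ptpn3, upstream of Palm2, was at 15.6 CPM in wild-type embryo 3 and between 8.55 and 9.49 CPM in the other wild-type embryos. Frrs1, beside Palmd, was at 21.1 CPM in knockout embryo 2, the library labelled total RNA, and between 14.5 and 15.3 CPM in the other knockout embryos. Zfp821, one of the genes most like Palm2 within genotypes, was at 26.8 CPM in knockout embryo 2 and between 34.1 and 35.2 CPM in the others. Genes named outside the rule were not examined in this way. Among them, Tbx1 was at 25.5 CPM in wild-type embryo 3 and between 7.32 and 9.43 CPM in the other wild-type embryos. Tnni1 was at 122 CPM in wild-type embryo 3 and between 160 and 168 CPM in the other wild-type embryos.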

How the results depend on the processing

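Palm2 and Palmd were lower in the knockout in every setting run. Palm2 ranged from -1.05 to -0.95 and Palmd from -1.58 to -1.22 with 1 embryo left out, and limma on log2(RPKM + 1) gave -0.72 and -0.30. Akap2 ran from -0.29 to -0.08 with 1 embryo left out, Palm from 0.09 to 0.23, and Palm3 from -0.13 to 0.32 without a fixed sign. With Y-linked expression as a covariate, Palm2 was at -1.10, Palmd at -1.25 and Palm3 at 0.51. The ratios of Palm2 to Palm (-1.24 to -1.09), Palm3 (-1.28 to -0.80) and Akap2 (-0.91 to -0.73) kept their sign with 1 embryo left out, as did that to Palmd (0.16 to 0.61).

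The number of genes past FDR 0.05, 137, depended on the model. It was 709 with DESeq2 and 76 with the replicate number as a block, and it ran from 70 (without knockout embryo 4) to 490 (without wild-type embryo 3) with 1 embryo left out. DESeq2 called 1 gene each among the Akap genes, the cyclases and phosphodiesterases and the CaaX enzymes, where edgeR called 0, and the cause of these differences was not tested. The Y-linked covariate called 1 cyclase, Adcy5. The cardiomyocyte markers past FDR ranged from 4 to 8, with 4 under the block and without wild-type embryo 1, 2 or 4 or knockout embryo 4. The read-through reads gave a log2 difference of -0.93, or -0.56 with the shortest Akap2 entry subtracted, and the wild-type mean of Palm2 was 10.7 RPKM with the longest annotated length. Both alternatives were chosen after seeing the data.

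Deviations of same-numbered embryos from their genotype means correlated at 0.0991, 0.224, 0.0932 and 0.490 for numbers 1 to 4, and 1 of 4 embryos matched its own number best, so the numbers were not taken to pair the embryos. With the block, Palm2 was at -1.0 and Palmd at -1.42. Depth limits Palmd most, with 7 to 62 reads per library.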
